A study of Homo sapiens with 12 samples.

Results

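The genes described here are 31 named targets of the transcription factor p53. They were taken by symbol from a list chosen with earlier results of these data known. All were matched, to 31 of the 40649 gene identifiers counted. Bulk RNA-seq of oligo(dT)-selected RNA gave 12 libraries of the cell line HK-2, which derives from human proximal tubule and was grown in serum-containing MEM. The libraries formed 3 groups of 4. Cells of the first group had the genotype label Yap1 knockdown and received hydrogen peroxide (H2O2), an oxidant, at 150 µM for 48 h (shYAP1_H2O2). Cells of the second group had the genotype label ShNC and the same H2O2 treatment (shNC_H2O2), and cells of the third had the genotype ShNC and the treatment label Control (shNC). The name of the ShNC genotype was read as a control short hairpin, which both shNC groups carry, and the agent behind the Yap1 knockdown label is not specified in the labels. No library of knockdown cells without the oxidant is analysed here, and an effect of the knockdown by itself was not tested. In bulk RNA, fewer cells of a type and less RNA per cell cannot be told apart.

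p53 is held low in unstressed cells by the ubiquitin ligase MDM2 and its relative MDM4, and it accumulates when DNA is damaged or cells are otherwise stressed. It then binds DNA as a tetramer and switches on genes for cell-cycle arrest, DNA repair, apoptosis and metabolism, together with several of its own inhibitors. In the kidney tubule this programme is known from acute injury and from senescence after oxidative damage. HK-2 cells were immortalised with the E6 and E7 genes of a human papillomavirus. E6 recruits the ubiquitin ligase UBE3A to p53, which is then degraded, so p53 output in this line is known to be restrained at the protein level. Neither p53 protein nor the papillomavirus transcripts were measured in the values used here.

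The DNA element bound by p53 is built from half-sites with 3 purines, a C, 2 bases that are A or T, a G and 3 pyrimidines, and a full site holds 2 of them. This half-site is its own reverse complement, so 1 search covers both strands, and neighbouring matches were counted separately. It was searched in RefSeq promoter windows of 300 bases (GRCh38.p14, 250 bases before to 50 after the start), which were found for 24 of the 31 genes. A half-site was present in some window of 6 of these 24 genes (25%), against 8.06% of the 27305 genes in the table, and in 16.7% of 36 windows of the p53 targets against 6.63% of all 35116 windows. TP53INP1, TNFRSF10B, FBXO22, RRM2B, PHLDA3, CMBL and TRIM22 were without an entry. The stretches with a match are shown with capitals marking the half-sites. These 6 genes were among the 21 of 30 tested p53 targets called higher with H2O2 in control-hairpin cells. Genes with a window but no match, such as MDM2, BBC3 and SPATA18, were called higher as well. A link between the half-site and the change was not tested.
FAS: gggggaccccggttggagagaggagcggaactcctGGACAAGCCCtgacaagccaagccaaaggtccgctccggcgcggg
AEN: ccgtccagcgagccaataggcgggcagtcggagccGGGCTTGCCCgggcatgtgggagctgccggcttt
DDB2: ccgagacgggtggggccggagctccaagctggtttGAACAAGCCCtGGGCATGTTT
PLK2: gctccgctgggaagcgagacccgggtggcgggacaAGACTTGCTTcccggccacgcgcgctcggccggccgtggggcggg
SESN1: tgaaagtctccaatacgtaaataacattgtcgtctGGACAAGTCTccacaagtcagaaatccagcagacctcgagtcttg
FDXR: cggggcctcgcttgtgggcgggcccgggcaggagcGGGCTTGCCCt
The stretches lie at chr10:88991274-88991353 for FAS, chr15:88621271-88621339 for AEN and chr11:47214944-47214999 for DDB2, all on the plus strand. Those of the other 3 lie on the minus strand, at chr5:58460174-58460253 for PLK2, chr6:109008993-109009072 for SESN1 and chr17:74872995-74873040 for FDXR. In the DDB2 window 2 half-sites stood 1 base apart, the arrangement of a full site, and 0.31% of all windows held 2 or more. The half-site began 122 bases before the RefSeq start in FAS, 132 in PLK2, 49 in SESN1, 34 in AEN and 11 in FDXR. A match of letters is not evidence of binding, and a gene without one may be bound elsewhere.

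YAP1, the gene named in the knockdown label, had 131, 135, 111 and 136 CPM (counts scaled by library total and TMM factors) in the shYAP1_H2O2 libraries, 155, 151, 155 and 163 in shNC_H2O2 and 136, 130, 140 and 124 in shNC, in the order of replicates 1 to 4. All 4 shYAP1_H2O2 libraries were below all 4 shNC_H2O2 libraries and overlapped those of shNC. The log2 fold change of YAP1 was -0.29 ± 0.07 (standard error, SE) in shYAP1_H2O2 against shNC_H2O2 (adjusted p = 0.00346) and -0.05 ± 0.07 in shYAP1_H2O2 against shNC (adjusted p = 0.636), with a 95% interval of -0.20 to 0.10 for the second. A two-sided exact permutation test of the first difference gave p = 0.0286, the smallest that 70 assignments allow, and 0.6 for the second. YAP1 mRNA was thus lower only relative to the H2O2-treated control, in which it was higher than in shNC by 0.24 ± 0.07 (adjusted p = 0.0104). YAP1 protein was not measured in these files.

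Libraries held 30789997 to 46582873 counts. The 2 libraries shNC replicate 4 and shYAP1_H2O2 replicate 3 stood apart, with 13.9% and 11.3% of counts on mitochondrial genes against 4.54% to 5.64% in the other 10, and where leaving out both changed the call of a p53 target, the value without both is given at that gene. Of the proximal tubule markers, PAX8 was abundant at 319, 244 and 426 CPM in shYAP1_H2O2, shNC_H2O2 and shNC, whereas LRP2, CUBN, AQP1, ANPEP and HNF4A each averaged under 1 CPM and SLC22A8 had no count, so most defining markers of the labelled cell type were at or near 0. Keratins, EPCAM and CDH1 of simple epithelia summed to 1120 to 1160, 1250 to 1300 and 967 to 1240 CPM in the same order of groups. KRT8, KRT18, KRT19 and EPCAM made up most of each sum, so it does not show changes in the rest. KRT7 averaged 4.6, 43.1 and 3.54 CPM and CDH1 3.11, 1.21 and 5.81. Endothelial and immune markers summed to at most 0.481 and 0.914 CPM in any library. Fibroblast markers summed to 143 to 172 CPM in shYAP1_H2O2, 236 to 255 in shNC_H2O2 and 110 to 113 in shNC, mostly LUM, and their part in the results below was not tested.

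UBE3A, the ligase that E6 uses against p53, averaged 86.8 ± 4.87, 77.1 ± 3.58 and 82.1 ± 3.12 CPM (SD, n = 4 each) in shYAP1_H2O2, shNC_H2O2 and shNC, and differed by 0.17 ± 0.06 on the log2 scale between the first 2 groups (adjusted p = 0.0344), a call lost without shNC_H2O2 replicates 1 or 2 or shYAP1_H2O2 replicates 1, 2 or 4 (0.061 to 0.107). That call was also lost with library totals alone (0.11, adjusted p = 0.226) and with no filter on low counts (0.17, adjusted p = 0.115).

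Per exon length, the p53 targets were expressed at or somewhat above the level of the typical gene. Their median level was 17.6 TPM (transcripts scaled to a fixed total after division by exon length) in shYAP1_H2O2, 21.5 in shNC_H2O2 and 13.7 in shNC, against 10.3, 11.5 and 9.7 TPM over the 19011 tested genes with a known exon length. Of the 30 that passed the filter on low counts, 25 lay above the median tested gene by mean TPM over the 12 libraries, 8 in the top 25% and 5 in the top 10%. The highest was PLK2, a polo-like kinase, at 634 TPM, followed by the cyclin CCNG1 at 202, the BH3-only protein PMAIP1 (NOXA) at 192, the death receptor TNFRSF10B at 120 and the pore-forming BAX at 94.2. At the other end were the antiviral ubiquitin ligase TRIM22 at 0.690 and the mitochondrial quality-control protein SPATA18 at 1.55 TPM. The TPM total includes mitochondrial transcripts, which differ in share between libraries as given above.

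**Figure D1:**
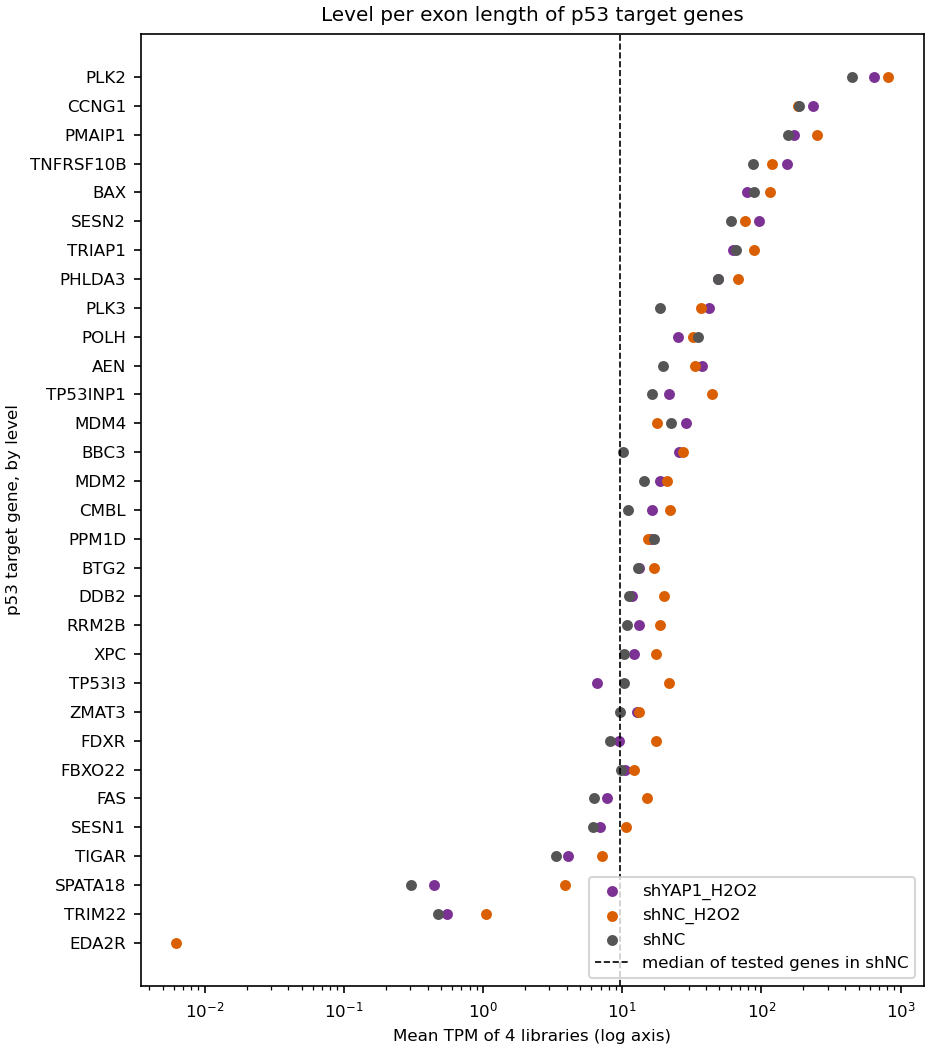
Mean level of each p53 target gene in TPM on a log axis, for shYAP1_H2O2 (purple), shNC_H2O2 (orange) and shNC (grey), each point the mean of 4 libraries. PLK2 is highest, and TRIM22 and SPATA18 are lowest of the genes that passed the filter on low counts. In shNC, TRIM22, SPATA18, TIGAR, SESN1, FAS, FDXR and ZMAT3 lie below the median of tested genes in that group (9.7 TPM, dashed). EDA2R has a point in shNC_H2O2 alone.

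EDA2R, a receptor of the TNF family, was the only p53 target that did not pass the filter on low counts. It had 0 CPM in 11 libraries and 0.0232 CPM in shNC_H2O2 replicate 4, which is below the floor of 3 counts (0.0722 CPM in that library), so it is described no further. The other 30 lay at or above the cutoff of 0.259 CPM in all 4 libraries of every group, so none was retained through 1 group alone.

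With H2O2 in control-hairpin cells, most of the p53 targets rose. In shNC_H2O2 against shNC, 21 of 30 were called higher and 4 lower at an adjusted p under 0.05 by edgeR's quasi-likelihood test with Benjamini-Hochberg adjustment over all tested genes, that is 83.3%, whereas 46.6% of all 19268 tested genes were called, 23.9% higher and 22.6% lower. Their median log2 fold change was 0.61, against 0.00 for all tested genes, and the values ran from -0.51 for MDM4 to 3.48 for SPATA18. All 4 libraries lay above all 4 of shNC for 24 genes and below them for 4, against 25.2% and 22.9% of tested genes. The change reached 2-fold with a call in 4 genes (SPATA18, BBC3, TP53INP1 and FAS), against 13.7% of tested genes, so its size was modest for most of them. Without the 2 libraries of high mitochondrial share, 25 were called higher and 4 lower, where 59.4% of all tested genes were called, and the median was 0.50.

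Between the H2O2-treated groups the balance was the other way. In shYAP1_H2O2 against shNC_H2O2, 5 of 30 p53 targets were called higher and 16 lower, that is 70%, with 43% of all tested genes called, 22% higher and 21% lower. The median log2 fold change was -0.37, and the groups did not overlap for 5 genes that were higher and 18 that were lower, against 22.5% and 22.7% of tested genes. Without the same 2 libraries 6 were called higher and 19 lower, with 57.3% of all tested genes called and a median of -0.26. This comparison and the one above use the same shNC_H2O2 libraries, on opposite sides, so values for each gene are given side by side and no agreement between them is drawn.

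In shYAP1_H2O2 against shNC, which shares libraries with both, 12 of 30 were called higher and 3 lower (50%, with 32.5% of all tested genes called, 17.4% higher and 15.1% lower), and the median was 0.18. The groups did not overlap for 9 genes that were higher and 2 that were lower (15.8% and 13.9% of tested genes, 29.7% in all), and the ranges of the other 19 met. BBC3 and PLK3 were the 2 called at 2-fold or more, against 5.81% of tested genes. Calls and directions in this comparison are therefore those of fewer genes, led by BBC3 (1.30), PLK3 (1.12), AEN (0.85) and TNFRSF10B (0.73), with TP53I3 lowest at -0.69.

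**Figure D2:**
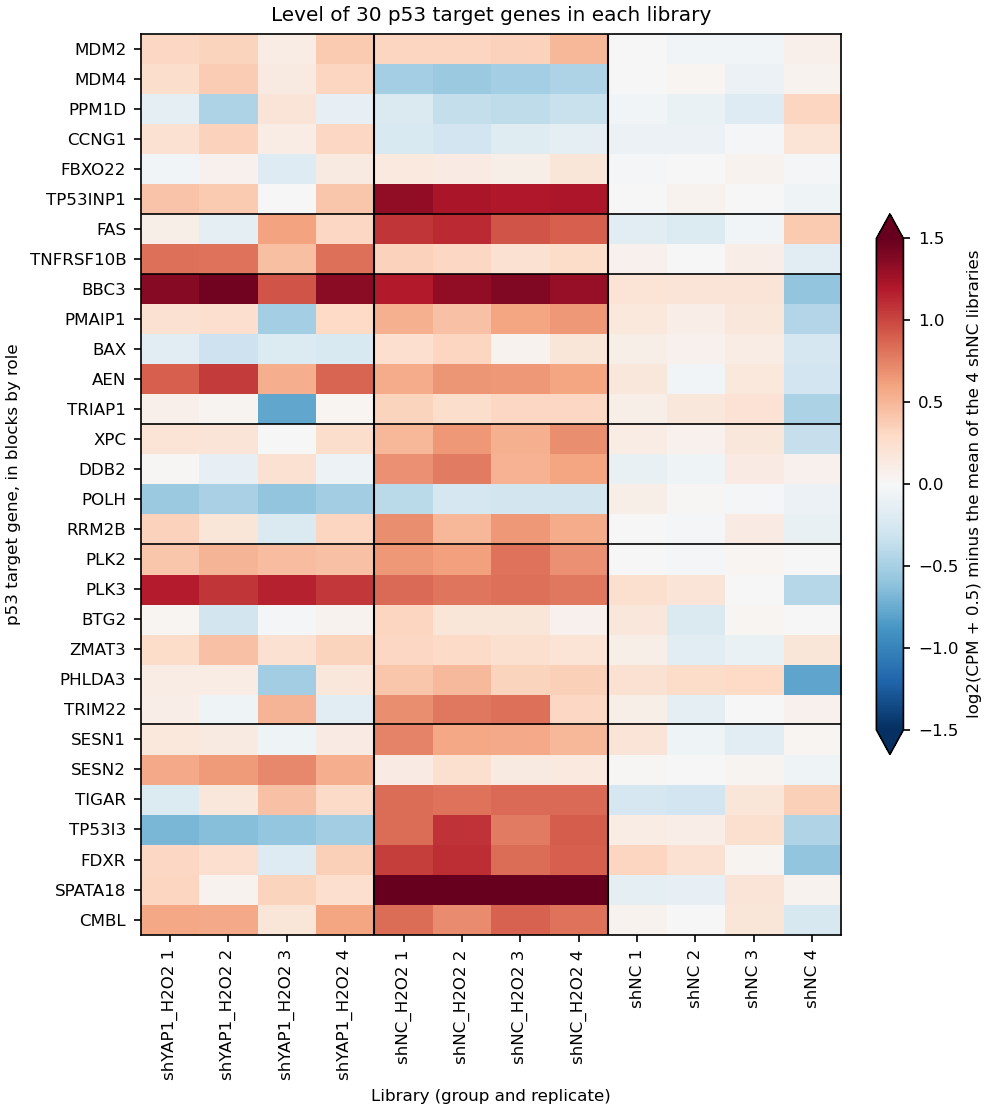
Level of 30 p53 target genes in each of the 12 libraries, as log2(CPM + 0.5) minus the mean of the 4 shNC libraries (colour), with libraries in columns by group and genes in blocks by role. Red marks values above the shNC mean and blue below it; the shNC_H2O2 block is red for most genes and blue for MDM4, PPM1D, CCNG1 and POLH.

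**Figure D3:**
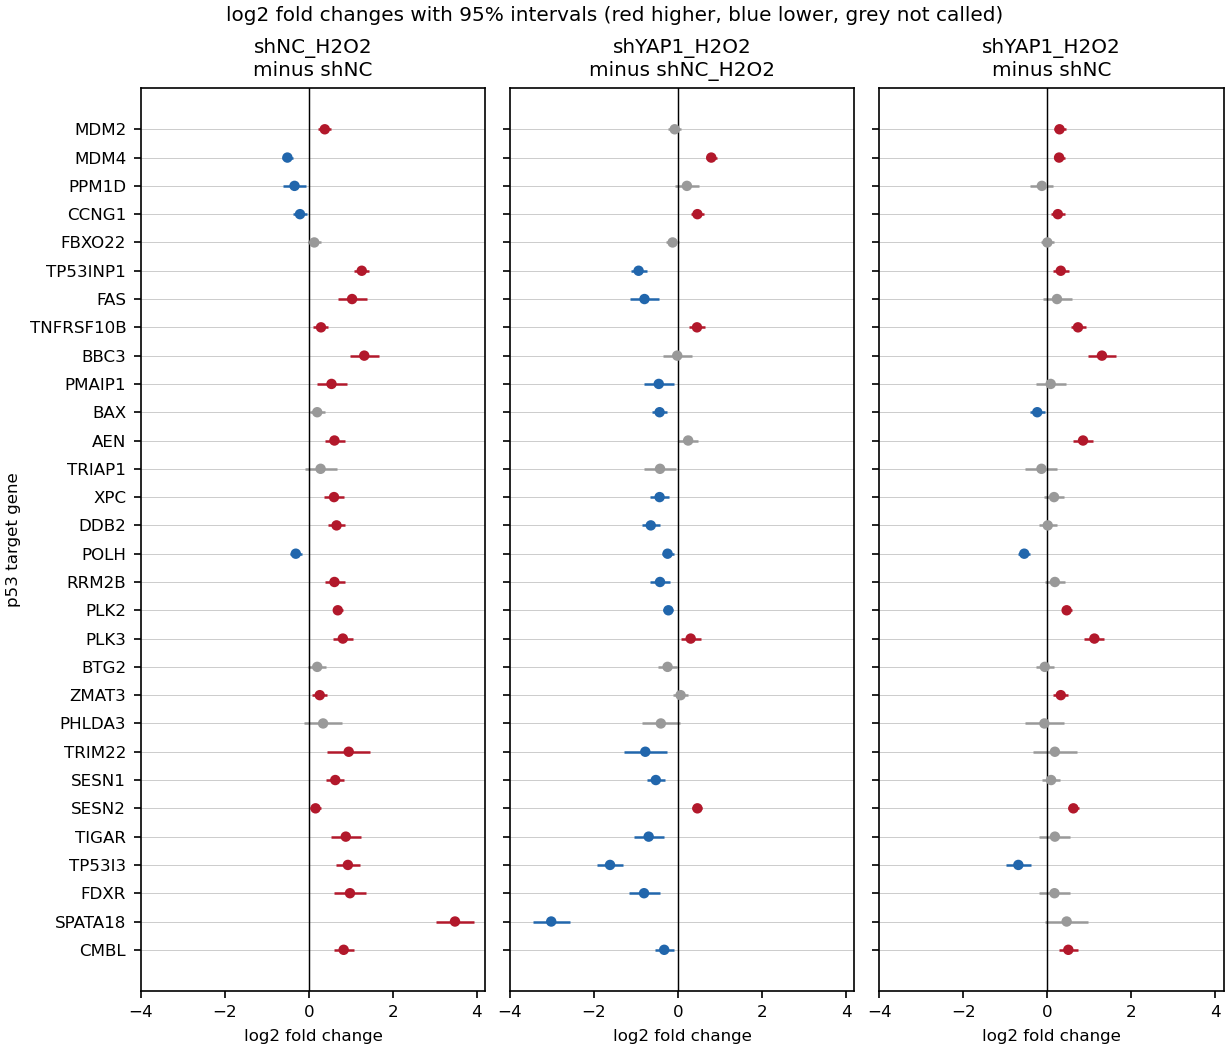
log2 fold changes of 30 p53 target genes with 95% intervals in the 3 comparisons, coloured red where called higher, blue where called lower and grey where not called. In shNC_H2O2 against shNC 21 genes are red and 4 blue; in shYAP1_H2O2 against shNC_H2O2 5 are red and 16 blue.

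The genes that feed back on p53 were split. TP53INP1, a stress protein that promotes phosphorylation of p53, had 36.8, 35.9, 27.3 and 36.5 CPM in shYAP1_H2O2, 69.3, 64.6, 63.2 and 64.1 in shNC_H2O2 and 27.4, 28.3, 27.4 and 26.1 in shNC. Every shNC_H2O2 library was far above all others, and 3 of the 4 knockdown libraries were a little above shNC. TP53INP1 changed by 1.26 ± 0.09 on the log2 scale in shNC_H2O2 against shNC (adjusted p = 1.02e-08), -0.94 ± 0.09 in shYAP1_H2O2 against shNC_H2O2 (adjusted p = 4.05e-07) and 0.32 ± 0.09 in shYAP1_H2O2 against shNC (adjusted p = 0.00975). MDM4, the inhibitor that binds the p53 transactivation domain, went the other way in the first 2 of these comparisons. It had 86.7, 94.5, 79.9 and 90.6 CPM in shYAP1_H2O2, 50.7, 49.1, 50.8 and 52.2 in shNC_H2O2 and 72.4, 73.7, 68.3 and 75.4 in shNC. The 3 groups formed 3 separate ranges, with the knockdown libraries highest and shNC_H2O2 lowest. MDM4 changed by -0.51 ± 0.06 in shNC_H2O2 against shNC (adjusted p = 6.39e-06), 0.79 ± 0.06 in shYAP1_H2O2 against shNC_H2O2 (adjusted p = 8.46e-08) and 0.28 ± 0.06 in shYAP1_H2O2 against shNC (adjusted p = 0.00292).

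MDM2, the main ubiquitin ligase of p53 and a classic p53 target, ranged over 60.7 to 73.7 CPM in shYAP1_H2O2, 69.9 to 79.4 in shNC_H2O2 and 54.4 to 58.8 in shNC. Both H2O2 groups lay above shNC and overlapped each other. MDM2 changed by 0.38 ± 0.07 with H2O2 in control-hairpin cells (adjusted p = 0.000365), and the difference between the H2O2 groups was -0.08 with a 95% interval of -0.23 to 0.07 (adjusted p = 0.371). CCNG1, a cyclin that works with a phosphatase on MDM2, ranged over 184 to 216 CPM in shYAP1_H2O2, 140 to 155 in shNC_H2O2 and 160 to 196 in shNC. Between the H2O2 groups CCNG1 was higher by 0.46 ± 0.08 in the knockdown (adjusted p = 0.000141). Its small decrease with H2O2 in control-hairpin cells (-0.21 ± 0.07, adjusted p = 0.0303) was lost without shNC replicate 4 or without any of shNC_H2O2 replicates 1 to 3, at adjusted p-values of 0.0510 to 0.0952. Its rise in shYAP1_H2O2 against shNC (0.25 ± 0.07, adjusted p = 0.019) was lost without any of shNC replicates 1 to 3 or shYAP1_H2O2 replicates 2 and 4 (0.0508 to 0.0706). PPM1D, the phosphatase WIP1 that returns p53 signalling to rest, ranged over 18.1 to 28.7 CPM in shYAP1_H2O2, 19.2 to 21.4 in shNC_H2O2 and 21.9 to 31.6 in shNC. Its decrease of -0.34 in shNC_H2O2 against shNC (adjusted p = 0.0418) rested on almost every library: it was lost without shNC replicates 1 or 4, any shNC_H2O2 library, or shYAP1_H2O2 replicates 1 or 4, at adjusted p-values of 0.0528 to 0.119, and was -0.22 without shNC replicate 4. FBXO22, an F-box protein that targets methylated p53, averaged 34.2 ± 3.31, 37.5 ± 1.02 and 34.2 ± 0.848 CPM in shYAP1_H2O2, shNC_H2O2 and shNC and was called in no comparison. Its change with H2O2 was 0.13 with a 95% interval of -0.02 to 0.29, and 0.11 without both libraries of high mitochondrial share, where it was called (adjusted p = 0.0475).

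The pair of death receptors that could be tested both rose with H2O2 and parted in the knockdown. FAS, the receptor of FAS ligand, had 8.45, 7.18, 12.3 and 9.92 CPM in shYAP1_H2O2, 17.2, 17.8, 15.7 and 15.2 in shNC_H2O2 and 7.04, 6.82, 7.71 and 10.6 in shNC. All shNC_H2O2 libraries lay above all others, and the other groups overlapped. FAS changed by 1.03 ± 0.16 in shNC_H2O2 against shNC (adjusted p = 6.63e-05) and by -0.80 ± 0.16 in shYAP1_H2O2 against shNC_H2O2 (adjusted p = 0.000748). In shYAP1_H2O2 against shNC it differed by 0.23 with a 95% interval of -0.11 to 0.58, and by 0.39 without shNC replicate 4 (adjusted p = 0.0465). TNFRSF10B, a receptor of TRAIL, ranged over 179 to 231 CPM in shYAP1_H2O2, 153 to 166 in shNC_H2O2 and 116 to 140 in shNC. Its 3 groups did not overlap and were highest in the knockdown, where replicate 3 was the low one. TNFRSF10B changed by 0.29 ± 0.08 with H2O2 in control-hairpin cells (adjusted p = 0.0105), by a further 0.45 ± 0.08 in shYAP1_H2O2 against shNC_H2O2 (adjusted p = 0.000455) and by 0.73 ± 0.08 in shYAP1_H2O2 against shNC (adjusted p = 7.74e-06).

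Among the 5 genes of mitochondrial apoptosis, 3 were called higher with H2O2 in control-hairpin cells and none lower. That is 60%, where 46.6% of all tested genes were called, 23.9% of them higher. BBC3 (PUMA), a BH3-only activator of BAX, had 23.7, 25, 17.5 and 23.4 CPM in shYAP1_H2O2, 20.8, 23.1, 24.1 and 22.7 in shNC_H2O2 and 10.3, 10.2, 10.2 and 5.73 in shNC. Both H2O2 groups were well above shNC and overlapped each other, and shNC replicate 4 was below its group. BBC3 changed by 1.32 ± 0.16 in shNC_H2O2 against shNC (adjusted p = 7.41e-06) and by 1.30 ± 0.16 in shYAP1_H2O2 against shNC (adjusted p = 2e-05), while the H2O2 groups differed by -0.02 with a 95% interval of -0.35 to 0.32. AEN, a nuclease that p53 induces in apoptosis, had 63.7, 70.9, 50.1 and 62.8 CPM in shYAP1_H2O2, 50.3, 54.3, 53.9 and 51.4 in shNC_H2O2 and 38.5, 33, 38.2 and 27.7 in shNC. Its H2O2 groups were both above shNC. AEN changed by 0.61 ± 0.11 in shNC_H2O2 against shNC (adjusted p = 0.000259) and by 0.85 ± 0.11 in shYAP1_H2O2 against shNC (adjusted p = 2.51e-05). The difference between the H2O2 groups, 0.24 with a 95% interval of 0.01 to 0.47 (adjusted p = 0.0898), was called without shYAP1_H2O2 replicate 3 (0.33, adjusted p = 0.0114) or shNC replicate 4 (0.24, adjusted p = 0.0314) or both (0.33, adjusted p = 2.45e-06). It was also called with only the 2 groups compared (0.24, adjusted p = 0.043).

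PMAIP1 (NOXA), another BH3-only protein, had 114, 116, 68.6 and 121 CPM in shYAP1_H2O2, 142, 133, 148 and 154 in shNC_H2O2 and 109, 105, 110 and 72.1 in shNC. All shNC_H2O2 libraries were highest, and replicate 3 of the knockdown and replicate 4 of shNC were far below their groups. PMAIP1 changed by 0.54 ± 0.16 in shNC_H2O2 against shNC (adjusted p = 0.0153) and by -0.46 ± 0.16 in shYAP1_H2O2 against shNC_H2O2 (adjusted p = 0.0378). The second call was lost without shNC_H2O2 replicates 1, 3 or 4 or shYAP1_H2O2 replicate 3, at adjusted p-values of 0.0532 to 0.0853, and was -0.30 without the last. Both calls were lost with no filter on low counts (adjusted p = 0.0815 and 0.152). PMAIP1 was not called in shYAP1_H2O2 against shNC, except without both libraries of high mitochondrial share (0.11, adjusted p = 0.0451). BAX, which opens the outer mitochondrial membrane, ranged over 53.4 to 59.2 CPM in shYAP1_H2O2, 69.3 to 83.6 in shNC_H2O2 and 55.5 to 71.6 in shNC. BAX changed by -0.44 in shYAP1_H2O2 against shNC_H2O2 (adjusted p = 0.000528), and in shNC_H2O2 against shNC it differed by 0.20 with a 95% interval of 0.03 to 0.38 (adjusted p = 0.058), which was called without shNC replicate 3, shNC_H2O2 replicate 3 or shYAP1_H2O2 replicate 3 (0.0319 to 0.0488), with library totals alone (0.28, adjusted p = 0.0383) or without both libraries of high mitochondrial share (0.12, adjusted p = 0.0384). The decrease of BAX in shYAP1_H2O2 against shNC (-0.24, adjusted p = 0.0409) was lost without any of shNC replicates 1 to 3, shNC_H2O2 replicates 1 or 4, or shYAP1_H2O2 replicates 1, 2 or 4, at adjusted p-values of 0.0570 to 0.118. TRIAP1, an inhibitor of apoptosis at mitochondria, averaged 24.6 ± 6.16, 33.1 ± 0.728 and 27.2 ± 5.57 CPM in shYAP1_H2O2, shNC_H2O2 and shNC. TRIAP1 was called in no comparison, with -0.43 between the H2O2 groups (95% interval -0.80 to -0.05). That difference was called without shNC replicate 4 (adjusted p = 0.0297), with only the 2 groups compared (adjusted p = 0.0464) and by DESeq2 (adjusted p = 0.04). Without both libraries of high mitochondrial share TRIAP1 was called higher by 0.13 in shNC_H2O2 against shNC (adjusted p = 0.0225) and lower, at -0.26, in shYAP1_H2O2 against shNC_H2O2 (adjusted p = 5.77e-05).

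**Figure D4:**
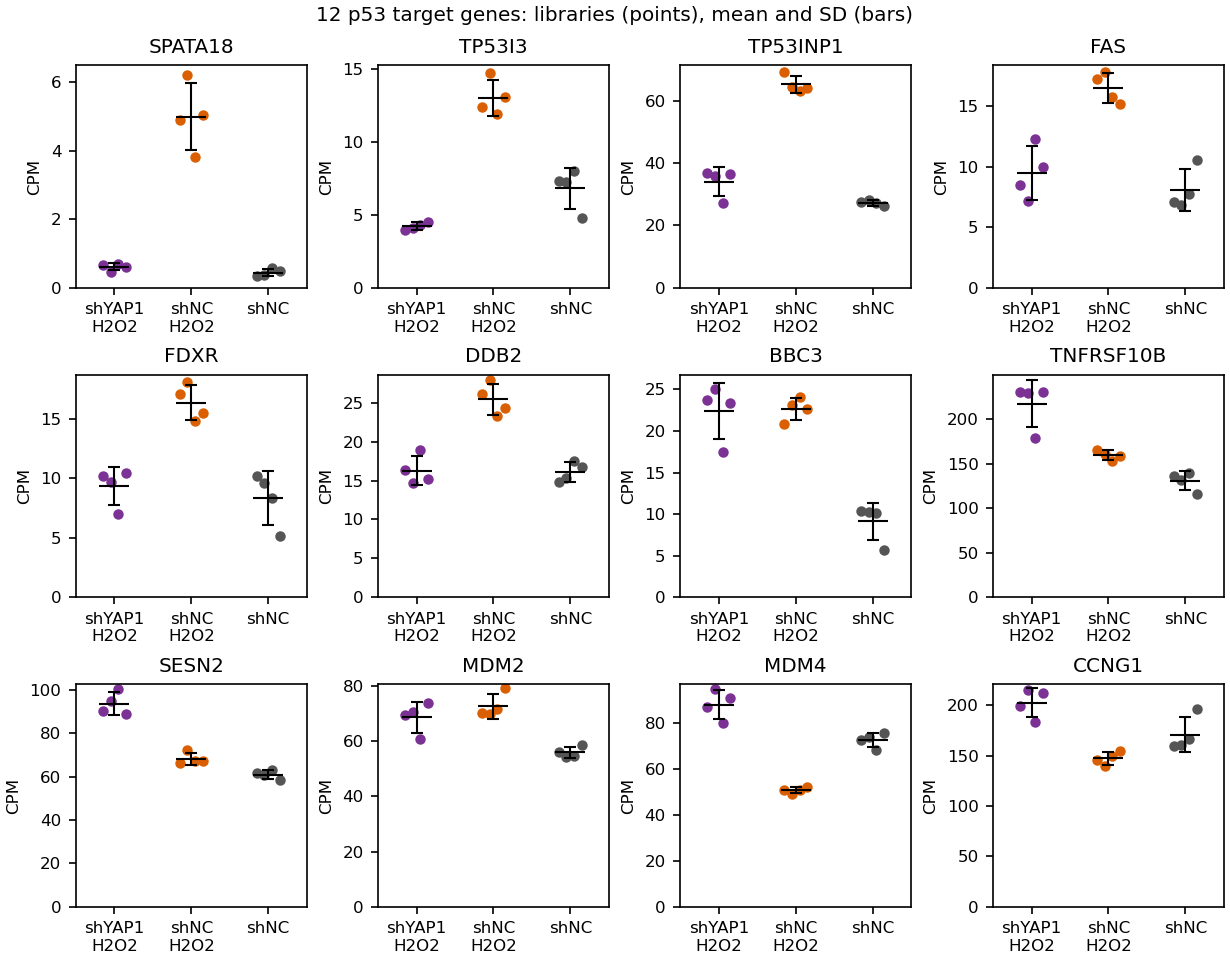
CPM of 12 p53 target genes in each library (points) with the mean and SD of each group of 4 (bars), for shYAP1_H2O2 (purple), shNC_H2O2 (orange) and shNC (grey). SPATA18, TP53I3, TP53INP1, FAS, FDXR and DDB2 are highest in shNC_H2O2, BBC3 and MDM2 are high in both H2O2 groups, TNFRSF10B and SESN2 are highest in shYAP1_H2O2, and MDM4 and CCNG1 are lowest in shNC_H2O2.

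Of the 4 genes of DNA repair and nucleotide supply, 3 were called higher and 1 lower with H2O2 in control-hairpin cells, against 23.9% and 22.6% of all tested genes. All 4 were called lower in the knockdown against shNC_H2O2, where 21% of all tested genes were. DDB2, which recognises ultraviolet lesions in DNA and holds the paired half-sites shown above, had 16.3, 14.7, 18.9 and 15.2 CPM in shYAP1_H2O2, 26.1, 27.9, 23.4 and 24.4 in shNC_H2O2 and 14.8, 15.3, 17.5 and 16.8 in shNC. The shNC_H2O2 libraries stood above all others, which overlapped. DDB2 changed by 0.66 ± 0.09 in shNC_H2O2 against shNC (adjusted p = 3.1e-05), by -0.65 ± 0.09 in shYAP1_H2O2 against shNC_H2O2 (adjusted p = 4.88e-05) and by 0.01 in shYAP1_H2O2 against shNC (95% interval -0.19 to 0.22). XPC, the damage sensor of nucleotide excision repair, had 16.4, 16.2, 14.3 and 17.2 CPM in shYAP1_H2O2, 20.2, 22.6, 20.7 and 23.4 in shNC_H2O2 and 15.3, 14.9, 16 and 11.1 in shNC, again with shNC_H2O2 above the rest. XPC changed by 0.60 ± 0.11 in shNC_H2O2 against shNC (adjusted p = 0.000269) and by -0.44 ± 0.11 in shYAP1_H2O2 against shNC_H2O2 (adjusted p = 0.00374). Its value is uncertain, since 30.4% of its exon bases lie in another gene and strand use in counting is not given in the sources used here.

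RRM2B, the p53-inducible small subunit of ribonucleotide reductase that supplies nucleotides outside S phase, had 22.5, 19.9, 15.1 and 22.1 CPM in shYAP1_H2O2, 28.9, 25, 27.8 and 26.1 in shNC_H2O2 and 17.6, 17.4, 19.2 and 16.2 in shNC. All shNC_H2O2 libraries were above those of both other groups. RRM2B changed by 0.61 ± 0.11 in shNC_H2O2 against shNC (adjusted p = 0.000277) and by -0.43 ± 0.11 in shYAP1_H2O2 against shNC_H2O2 (adjusted p = 0.00461). It differed by 0.18 in shYAP1_H2O2 against shNC (95% interval -0.06 to 0.41), and was called without shYAP1_H2O2 replicate 3 (0.29, adjusted p = 0.0106) or without both libraries of high mitochondrial share (0.25, adjusted p = 0.00419). POLH, a polymerase that copies past damaged bases, was the exception in direction, with 23.9 to 25.7 CPM in shYAP1_H2O2, 27.4 to 30.6 in shNC_H2O2 and 34.2 to 38.6 in shNC. Its 3 groups did not overlap, and shNC was highest. POLH changed by -0.31 ± 0.07 in shNC_H2O2 against shNC (adjusted p = 0.00125), by -0.25 ± 0.07 in shYAP1_H2O2 against shNC_H2O2 (adjusted p = 0.00717) and by -0.55 ± 0.07 in shYAP1_H2O2 against shNC (adjusted p = 1.25e-05).

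The 6 genes of arrest and stress signalling included the most abundant p53 target. PLK2, a polo-like kinase of the stress response, had 830, 886, 860 and 843 CPM in shYAP1_H2O2, 977, 956, 1091 and 998 in shNC_H2O2 and 618, 616, 634 and 622 in shNC. The 3 groups were separate, with the knockdown between the other two. PLK2 changed by 0.69 ± 0.06 in shNC_H2O2 against shNC (adjusted p = 6.55e-08), by -0.23 ± 0.06 in shYAP1_H2O2 against shNC_H2O2 (adjusted p = 0.0031) and by 0.46 ± 0.06 in shYAP1_H2O2 against shNC (adjusted p = 1.54e-05). PLK3, its relative, had 42.4, 39.6, 41.8 and 39.1 CPM in shYAP1_H2O2, 33.6, 32.7, 33.2 and 32.3 in shNC_H2O2 and 21.9, 21.2, 18.4 and 13.6 in shNC. Here the knockdown libraries were highest and shNC lowest, without overlap. PLK3 changed by 0.81 ± 0.11 in shNC_H2O2 against shNC (adjusted p = 2.26e-05) and by 1.12 ± 0.11 in shYAP1_H2O2 against shNC (adjusted p = 2.17e-06). Its difference between the H2O2 groups, 0.30 ± 0.11 (adjusted p = 0.0369), was lost on leaving out any 1 of those 8 libraries, at adjusted p-values of 0.0513 to 0.0846.

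TRIM22, an antiviral ubiquitin ligase, was expressed at a low level, with 0.94, 0.78, 1.40 and 0.70 CPM in shYAP1_H2O2, 1.68, 1.82, 1.87 and 1.16 in shNC_H2O2 and 0.92, 0.71, 0.83 and 0.90 in shNC. The shNC_H2O2 libraries lay above shNC and met the range of the knockdown, whose replicate 3 was highest. TRIM22 changed by 0.95 ± 0.24 in shNC_H2O2 against shNC (adjusted p = 0.00391) and by -0.78 ± 0.24 in shYAP1_H2O2 against shNC_H2O2 (adjusted p = 0.015), a call that was lost without shYAP1_H2O2 replicate 4 (-0.65, adjusted p = 0.0542). ZMAT3, an RNA-binding regulator of splicing, ranged over 32.1 to 37.3 CPM in shYAP1_H2O2, 31.5 to 34 in shNC_H2O2 and 24.1 to 31 in shNC. ZMAT3 was higher by 0.32 in shYAP1_H2O2 against shNC (adjusted p = 0.00773). Its rise of 0.26 in shNC_H2O2 against shNC (adjusted p = 0.0189) was lost without shNC replicates 2 or 3 or shNC_H2O2 replicate 1, at adjusted p-values of 0.0521 to 0.0808. BTG2, an antiproliferative cofactor of mRNA deadenylation, averaged 10.1 ± 1.05, 12 ± 0.930 and 10.5 ± 1.2 CPM in shYAP1_H2O2, shNC_H2O2 and shNC, and was called in no comparison. Between the H2O2 groups it was called lower without both libraries of high mitochondrial share (-0.25, adjusted p = 0.0278) and with library totals alone (-0.31, adjusted p = 0.0359). PHLDA3, a repressor of AKT, had 45.2, 45.2, 29.1 and 47 CPM in shYAP1_H2O2, 55.7, 58.9, 52.8 and 53.6 in shNC_H2O2 and 49, 50.6, 51.3 and 23.9 in shNC. All shNC_H2O2 libraries were above both other groups, but replicate 3 of the knockdown and replicate 4 of shNC were far below their groups, and no comparison was called. Its 95% intervals were -0.12 to 0.79 in shNC_H2O2 against shNC and -0.86 to 0.05 in shYAP1_H2O2 against shNC_H2O2. Without those 2 libraries the same differences were 0.13 and -0.27, both called (adjusted p = 0.0140 and 4.14e-06). The second was also called without shNC replicate 4 alone (-0.41, adjusted p = 0.0113) and with only the 2 groups compared (-0.41, adjusted p = 0.0218). Without both, PHLDA3 was also called lower in shYAP1_H2O2 against shNC (-0.14, adjusted p = 0.0143).

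The 7 genes of redox control and metabolism were all called higher in shNC_H2O2 against shNC, where 23.9% of all tested genes were called higher. In shYAP1_H2O2 against shNC_H2O2, 6 were called lower and 1 higher, against 21% and 22% of all tested genes. The median log2 fold changes of the 7 genes were 0.88 and -0.70 in these comparisons. SPATA18 (Mieap), which acts in the turnover of damaged mitochondria, had 0.676, 0.473, 0.686 and 0.616 CPM in shYAP1_H2O2, 4.9, 6.2, 3.8 and 5.04 in shNC_H2O2 and 0.356, 0.366, 0.578 and 0.475 in shNC. Every shNC_H2O2 library exceeded every other library several times over. SPATA18 changed by 3.48 ± 0.21 in shNC_H2O2 against shNC (adjusted p = 2.39e-09) and by -3.02 ± 0.20 in shYAP1_H2O2 against shNC_H2O2 (adjusted p = 1.42e-08), the widest changes of the 30 genes in both, at a low level of expression. In shYAP1_H2O2 against shNC it differed by 0.46 (95% interval -0.06 to 0.97).

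TP53I3 (PIG3), a quinone oxidoreductase linked to reactive oxygen, had 3.98, 4.12, 4.31 and 4.55 CPM in shYAP1_H2O2, 12.4, 14.8, 11.9 and 13.1 in shNC_H2O2 and 7.3, 7.26, 8.02 and 4.78 in shNC. The 3 groups were separate, with shNC_H2O2 highest and the knockdown lowest. TP53I3 changed by 0.93 ± 0.14 in shNC_H2O2 against shNC (adjusted p = 3.89e-05), by -1.62 ± 0.14 in shYAP1_H2O2 against shNC_H2O2 (adjusted p = 2.23e-07) and by -0.69 ± 0.14 in shYAP1_H2O2 against shNC (adjusted p = 0.00158). FDXR, the ferredoxin reductase of mitochondria, had 10.2, 9.72, 7.03 and 10.5 CPM in shYAP1_H2O2, 17.1, 18.1, 14.8 and 15.5 in shNC_H2O2 and 10.2, 9.59, 8.37 and 5.18 in shNC. All shNC_H2O2 libraries were highest, and the other 2 groups overlapped. FDXR changed by 0.98 ± 0.18 in shNC_H2O2 against shNC (adjusted p = 0.000299) and by -0.81 ± 0.17 in shYAP1_H2O2 against shNC_H2O2 (adjusted p = 0.00157).

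TIGAR, a phosphatase that diverts sugar from glycolysis, had 3.38, 4.54, 5.54 and 4.95 CPM in shYAP1_H2O2, 7.46, 7.35, 7.54 and 7.53 in shNC_H2O2 and 3.24, 3.16, 4.57 and 5.23 in shNC. The shNC_H2O2 libraries were nearly equal and above all others, while the other groups overlapped. TIGAR changed by 0.88 ± 0.17 in shNC_H2O2 against shNC (adjusted p = 0.000538) and by -0.70 ± 0.17 in shYAP1_H2O2 against shNC_H2O2 (adjusted p = 0.00355), and 45.6% of its exon bases are shared with a neighbour, so its counts are uncertain. SESN1, a sestrin that restrains the growth kinase mTOR, had 10.3, 10.2, 8.77 and 10.1 CPM in shYAP1_H2O2, 15.8, 14, 13.9 and 13.2 in shNC_H2O2 and 10.6, 8.79, 8.19 and 9.41 in shNC, again with shNC_H2O2 alone on top. SESN1 changed by 0.63 ± 0.10 in shNC_H2O2 against shNC (adjusted p = 8.18e-05) and by -0.53 ± 0.10 in shYAP1_H2O2 against shNC_H2O2 (adjusted p = 0.000407).

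SESN2, the other sestrin, differed from SESN1 in that its knockdown libraries were highest. It ranged over 89 to 100 CPM in shYAP1_H2O2, 66.2 to 72.2 in shNC_H2O2 and 58.4 to 62.8 in shNC, without overlap. SESN2 changed by 0.46 ± 0.06 in shYAP1_H2O2 against shNC_H2O2 (adjusted p = 1.47e-05) and by 0.62 ± 0.06 in shYAP1_H2O2 against shNC (adjusted p = 1.29e-06). Its small rise in shNC_H2O2 against shNC (0.16 ± 0.06, adjusted p = 0.0355) was lost without shNC replicates 1, 2 or 4 or shNC_H2O2 replicates 2, 3 or 4, at adjusted p-values of 0.0512 to 0.110. CMBL, a hydrolase of liver and kidney, had 16.1, 16, 12 and 16.2 CPM in shYAP1_H2O2, 19.3, 17.7, 19.9 and 19 in shNC_H2O2 and 11, 10.6, 12.1 and 8.88 in shNC. The shNC_H2O2 libraries were highest, and replicate 3 of the knockdown fell within shNC. CMBL changed by 0.83 ± 0.11 in shNC_H2O2 against shNC (adjusted p = 1.48e-05) and by 0.50 ± 0.11 in shYAP1_H2O2 against shNC (adjusted p = 0.0026). Its decrease in shYAP1_H2O2 against shNC_H2O2 (-0.33 ± 0.11, adjusted p = 0.023) was lost without shNC_H2O2 replicates 1 or 3 or shYAP1_H2O2 replicate 3, at adjusted p-values of 0.0513 to 0.0592.

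The 31 genes lie on 15 chromosomes, and some of them sit in stretches in which neighbouring genes shifted together between the groups. When the median shift of the 51 tested genes around each gene was removed, 6 p53 targets moved by 0.25 or more on the log2 scale in shNC_H2O2 against shNC, 7 in shYAP1_H2O2 against shNC_H2O2 and 0 in shYAP1_H2O2 against shNC. PHLDA3, BTG2 and MDM4 lie within 3.05 Mb of chromosome 1 and moved to 0.69, 0.50 and -0.28 in the first comparison, and to -0.69, -0.64 and 0.49 in the second. All 6 of these values were called, those of PHLDA3 close to the threshold (adjusted p = 0.0427 and 0.0455). PHLDA3 and BTG2 thus stood out from their neighbours as higher in shNC_H2O2 than in either other group. The change of MDM4 was smaller than without the removal. Adjusted p-values after the removal treat the shift, which was estimated from the same libraries, as known. ZMAT3 on chromosome 3 moved most, to 0.90 in shNC_H2O2 against shNC (adjusted p = 5.09e-08) and to -0.54 in shYAP1_H2O2 against shNC_H2O2 (adjusted p = 2.24e-05), where the value with its neighbours' shift was 0.06.

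BBC3 and BAX lie 1.73 Mb apart on chromosome 19. BBC3 kept a rise of 1.04 in shNC_H2O2 against shNC (adjusted p = 6.5e-05), whereas BAX turned to -0.16 (adjusted p = 0.0495) and its decrease in shYAP1_H2O2 against shNC_H2O2 shrank to -0.08 (adjusted p = 0.333). On chromosome 5, CMBL lost its decrease in shYAP1_H2O2 against shNC_H2O2 (-0.04, adjusted p = 0.78), and CCNG1 lost its decrease with H2O2 (0.00, adjusted p = 0.999) while staying higher in shYAP1_H2O2 against shNC_H2O2 (0.19, adjusted p = 0.0387). SPATA18, TP53INP1, FAS, FDXR, DDB2, TIGAR, SESN1 and RRM2B each moved by under 0.25 in both comparisons. Counts after the removal were 23 called higher and 4 lower in shNC_H2O2 against shNC, and 6 higher and 18 lower in shYAP1_H2O2 against shNC_H2O2, with 43% and 39.1% of all tested genes called. MDM2 on chromosome 12 then rose by 0.23 in shNC_H2O2 against shNC (adjusted p = 0.00686). In shYAP1_H2O2 against shNC_H2O2 AEN was then called higher (0.39, adjusted p = 0.00565) and TRIAP1 lower (-0.43, adjusted p = 0.0468). What moved the neighbouring genes was not tested.

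**Figure D5:**
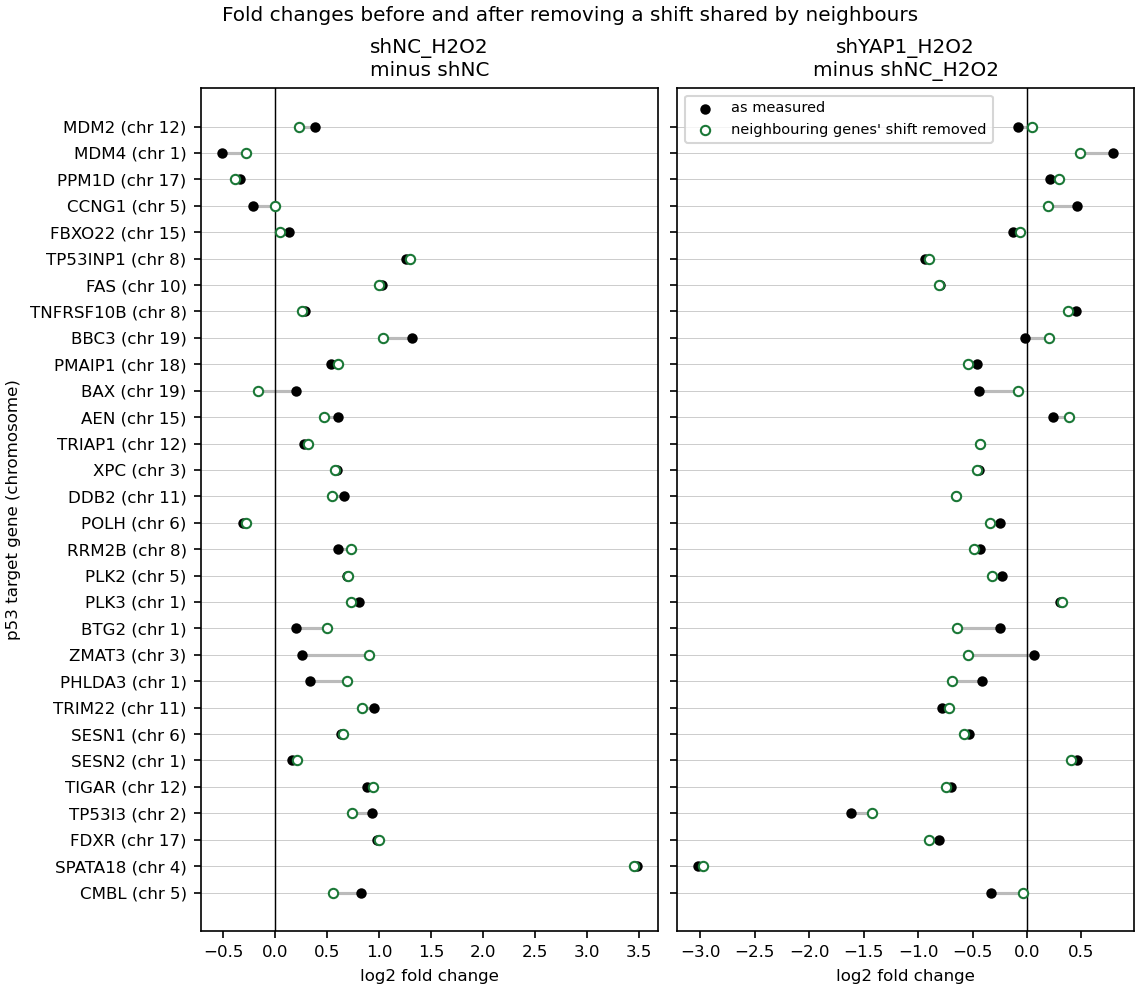
log2 fold changes of 30 p53 target genes as measured (black) and after removal of the median shift of the 51 tested genes around each (green, open), in shNC_H2O2 against shNC (left) and shYAP1_H2O2 against shNC_H2O2 (right), with the chromosome beside each symbol. ZMAT3, BTG2 and PHLDA3 move away from 0 in the left panel and BAX crosses it, while SPATA18 stays in place.

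Further p53 targets were called in both directions in similar numbers. Of 60 further p53 targets, 56 were tested, and 17 were called higher and 15 lower in shNC_H2O2 against shNC, with a median of 0.03. These are 57.1%, where 46.6% of all tested genes were called. In shYAP1_H2O2 against shNC_H2O2 18 were higher and 13 lower (55.4%, against 43% of tested genes, median 0.03), and in shYAP1_H2O2 against shNC 17 were higher and 12 lower (51.8%, against 32.5%, median 0.07). CDKN1A, the cyclin-dependent kinase inhibitor p21 that carries out p53-dependent arrest, averaged 288 ± 11.2 CPM in shYAP1_H2O2, 259 ± 9.12 in shNC_H2O2 and 179 ± 7.73 in shNC. Its groups did not overlap, and CDKN1A changed by 0.53 ± 0.06 in shNC_H2O2 against shNC (adjusted p = 1.1e-06) and by 0.15 ± 0.06 in shYAP1_H2O2 against shNC_H2O2 (adjusted p = 0.0354). The second call was lost without any of shNC_H2O2 replicates 2 to 4 or shYAP1_H2O2 replicates 1 or 2 (adjusted p = 0.0623 to 0.103) and with library totals alone (0.231). It was lost as well with no filter on low counts (adjusted p = 0.137) and with the neighbours' shift removed (0.12, adjusted p = 0.083). GDF15, a secreted stress cytokine, was likewise highest in the knockdown, with 494 ± 25, 271 ± 10.8 and 142 ± 21.5 CPM in shYAP1_H2O2, shNC_H2O2 and shNC and changes of 0.87 ± 0.09 and 0.93 ± 0.09 in shYAP1_H2O2 against shNC_H2O2 and in shNC_H2O2 against shNC (adjusted p = 1.54e-06 and 5.17e-07).

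Among the same further targets, the largest called rises with H2O2 in control-hairpin cells were 2.78 for KCNN4, a calcium-activated potassium channel, and 1.41 for the peptidase PGPEP1. The largest decreases were -2.19 for CYFIP2, a subunit of the actin-regulating WAVE complex, and -1.53 for SFN (14-3-3 sigma), which holds cells before mitosis. In shYAP1_H2O2 against shNC_H2O2 the largest rises were 2.54 for CYFIP2 and 1.01 for the small GTPase RAP2B, and the largest decreases -1.47 for KCNN4 and -1.12 for the cell-cycle cofactor SERTAD1. In shYAP1_H2O2 against shNC they were 1.80 for GDF15 and 1.31 for KCNN4 on the higher side, and -1.17 for SFN and -1.14 for the growth factor KITLG on the lower. The level of CYFIP2 was 59.2 ± 8.92 CPM in shYAP1_H2O2, 10.1 ± 1.2 in shNC_H2O2 and 46.5 ± 2.87 in shNC, so this p53 target had its lowest level in shNC_H2O2, where SPATA18 had its highest.

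Of 31 genes that act on p53, 30 were tested, and 8 were called higher and 7 lower in shNC_H2O2 against shNC (median 0.00), 12 higher and 4 lower in shYAP1_H2O2 against shNC_H2O2 (median 0.09), and 8 higher and 2 lower in shYAP1_H2O2 against shNC (median 0.09). Their called shares of 50%, 53.3% and 33.3% stand beside 46.6%, 43% and 32.5% of all tested genes, so those with H2O2 in control-hairpin cells and for the knockdown against shNC lay near the background. DYRK2, a kinase that phosphorylates p53 in the apoptotic response, averaged 156 ± 6.39 CPM in shYAP1_H2O2, 359 ± 5.06 in shNC_H2O2 and 69.4 ± 2.83 in shNC. Its 3 groups were separate, with changes of 2.37, -1.21 and 1.17 in shNC_H2O2 against shNC, shYAP1_H2O2 against shNC_H2O2 and shYAP1_H2O2 against shNC. TP53BP2 (ASPP2), a co-activator that directs p53 to apoptotic genes, had the opposite order, at 385 ± 51.5, 205 ± 1.8 and 582 ± 51.3 CPM in shYAP1_H2O2, shNC_H2O2 and shNC and changes of -1.51, 0.91 and -0.60 in the same 3 comparisons. PPP1R13L (iASPP), which inhibits p53, rose by 0.96 in shNC_H2O2 and 0.70 in shYAP1_H2O2, each against shNC. The deubiquitinase USP10 changed by -0.58 with H2O2 in control-hairpin cells and 0.53 in shYAP1_H2O2 against shNC_H2O2, HIPK2, another p53 kinase, by -0.54 in the second of these, and the DNA-damage kinase PRKDC by -0.27 in shYAP1_H2O2 against shNC. With the neighbours' shift removed GDF15 changed by 0.50 with H2O2 in control-hairpin cells and by 1.21 between the H2O2 groups, where RAP2B changed by 0.41, and all 3 values were called. In the same setting USP10 was -0.23 and 0.16 in its 2 comparisons (adjusted p = 0.0746 and 0.218), so neither call held.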

How the data were processed

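Per the labels, mRNA was taken from total RNA with oligo(dT) beads, reverse transcribed with random hexamers and sequenced in pairs on an Illumina or an MGI instrument. The labels name the HK-2 line but describe extraction from kidney tissue, and the libraries were taken here to be of HK-2. The authors deposited 1 table of raw counts per library, whole numbers per Ensembl gene, unscaled and not pooled. Per the submitters' processing notes the tools include DESeq2, Subread, featureCounts and HISAT2 and the build is GRCh38 (hg38). Tool versions and roles, the annotation and the strand setting were not given in the sources used here.

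Counts of 40649 genes were filtered with filterByExpr, which left 19268, scaled with TMM and fitted in edgeR 4.0.16 (R 4.3.3) with a robust quasi-likelihood model of 1 mean per group over all 12 libraries (9 residual degrees of freedom). A gene was called where its p, adjusted over all tested genes by Benjamini-Hochberg, was under 0.05, and adjusted p-values are edgeR's. Values after ± are SD over the 4 libraries of a group for CPM and SE for log2 fold changes. The SE was derived from the test statistic of the fit to all 12 libraries, and 95% intervals come from the SE. Positions and exon lengths came from GENCODE 29, TPM from counts over merged exon length, and genes sharing over 20% of exon bases with another are given as uncertain. The floor of 3 counts covers counting error only. Alternatives were DESeq2 1.42.0, its size factors in edgeR, library totals alone, no filter on low counts, only the groups compared, a replicate block, removal of the neighbours' shift, and libraries left out singly or, for both of high mitochondrial share, together. The fits were first tested on simulated counts. Replicates of a group differed by more than sampling noise (chi-square per degree of freedom at least 2.85), so each library counted as 1 replicate. Whether replicates are separate cultures is not stated in the labels, and p-values rest on the spread between these libraries alone, which may be technical.

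The p53 targets, the lists of other pathway genes and the alternatives were chosen with earlier results of these data known. Values of every library are given for p53 targets called in either of the first 2 comparisons with an absolute log2 fold change of at least 0.5 and a mean of at least 1 CPM in some group. Beside them stand YAP1, UBE3A, CDKN1A, GDF15 and, from each pathway list, up to 2 called genes with the largest rise and fall per comparison at a mean of at least 1 CPM. PHLDA3 is shown by library as well, a choice made after its values were seen. Some genes are not reported here. Figures were drawn with matplotlib 3.10.9.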

Additional observations from a re-analysis of the deposited data

Results flagged for a closer look

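In 13 of 93 groups of 4 libraries (14%), 1 library lay farther from the other 3 than Dixon's 95% limit allows. Chance flags about 1 in 20 groups of normally spread values. The groups draw on the same 12 libraries, so their flags are not independent and the 2 rates are not compared by a test. The 13 flags concern 11 of the 31 genes. Replicate 3 of shYAP1_H2O2 was the low library for 7 genes: TP53INP1 at 27.3 CPM, TNFRSF10B at 179.0, PMAIP1 at 68.6, TRIAP1 at 15.4, PHLDA3 at 29.1, SESN1 at 8.77 and CMBL at 12. Replicate 4 of shNC was the low library for 4 genes, with BBC3 at 5.73 CPM, PMAIP1 at 72.1, BAX at 55.5 and PHLDA3 at 23.9. These 2 are the libraries with the high mitochondrial share. The remaining 2 cases were high values in shNC_H2O2, namely 72.2 CPM for SESN2 in replicate 2 and 0.0232 CPM for EDA2R in replicate 4, where the others had 0. The EDA2R flag rests on 1 count.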

How the results depend on the processing

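Of 90 results (30 genes in 3 comparisons), 56 kept their direction and their side of the threshold in every one of the 20 settings tried. The median log2 fold change of the p53 targets in shNC_H2O2 against shNC was 0.68 with library totals alone and 0.50 without both libraries of high mitochondrial share. In shYAP1_H2O2 against shNC_H2O2 it was -0.42 with library totals alone, -0.26 without both libraries and -0.44 with the neighbours' shift removed. Leaving out 1 library at a time gave medians of 0.50 to 0.63, -0.40 to -0.26 and 0.17 to 0.26 in the 3 comparisons, and 22 to 26, 18 to 24 and 13 to 16 genes called. DESeq2 called 25, 22 and 15.

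Some differences changed sign, and the cause was not tested. With the neighbours' shift removed BAX was -0.16 in shNC_H2O2 against shNC. In shYAP1_H2O2 against shNC_H2O2 the same setting gave 0.05 for MDM2, 0.20 for BBC3, 0.04 for PGPEP1 and -0.54 for ZMAT3, and BBC3 was 0.09 without both libraries. In shYAP1_H2O2 against shNC, DDB2 was -0.10 with the shift removed and -0.05 without both libraries, FBXO22 was 0.02 with library totals alone and 0.04 without both libraries, and TRIM22 was -0.03 without both. Leaving out 1 library, BBC3 ran from -0.07 to 0.09 between the H2O2 groups. In shYAP1_H2O2 against shNC, FBXO22 ran from -0.05 to 0.06, PMAIP1 from -0.05 to 0.24, TRIAP1 from -0.29 to 0.03, DDB2 from -0.06 to 0.06, BTG2 from -0.13 to 0.02, PHLDA3 from -0.28 to 0.07, TRIM22 from -0.06 to 0.31, FDXR from -0.01 to 0.29 and YAP1 from -0.09 to 0.02.

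Same-numbered libraries correlated at -0.222 to 0.103 in their deviations from group means, and differently numbered ones at -0.218 to 0.389. The highest value was between shNC replicate 4 and shYAP1_H2O2 replicate 3, the libraries of high mitochondrial share. Equal replicate numbers thus did not go with higher correlations, though these libraries weigh on the range. With the replicate block 24, 20 and 14 p53 targets were called, against 25, 21 and 15 without it, and calls were lost for CDKN1A and PMAIP1 between the H2O2 groups (adjusted p = 0.0583 and 0.0576), PPM1D in shNC_H2O2 against shNC (0.055) and BAX in shYAP1_H2O2 against shNC (0.0588). In shNC_H2O2 against shNC, library totals alone lost PPM1D and CCNG1, and no filter lost SESN2 and PMAIP1. Library totals alone also lost PLK3 between the H2O2 groups and BAX in shYAP1_H2O2 against shNC. EDA2R was not detectable at this depth.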
